A study of Mus musculus with 33 samples.

Results

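The Vκ6 family analysed here comprises 8 immunoglobulin κ light chain V genes, IGKV6-13, IGKV6-14, IGKV6-15, IGKV6-17, IGKV6-20, IGKV6-23, IGKV6-25 and IGKV6-29, out of 163 Vκ genes listed for each library. The members were given as a list of named genes, drawn up with earlier results of these data known. IGKV6-32, the other gene of this name group, was not on the list, lies farther from the Jκ elements and is described next to the members. Vκ-Jκ recombination was measured by VDJ-seq, which captures joined V and J segments from genomic DNA, in 20 libraries of ex vivo sorted bone marrow cells from C57BL/6 mice aged 4 to 5 weeks. The pre-B group of Wapl(+/+) mice and that of Wapl(∆P1,2/∆P1,2) mice held 4 libraries each, and the pro-B groups of these genotypes 6 each. The ∆P1,2 allele lacks a binding site of the repressor Pax5 in the Wapl promoter and a region downstream of Wapl with another such site, so that Wapl, which releases cohesin from chromatin, is not held at a low level in pro-B cells. The control mice carried no other allele by their labels, and the mutation was present in all cells of the homozygous animals rather than in B cells alone. The comparisons ask how the genotype and the developmental stage relate to the choice of Vκ genes.

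Each Vκ gene carries a promoter, a leader exon, a V exon and, directly behind it, a recombination signal sequence of a heptamer, a spacer and a nonamer, at which the RAG proteins cut. A cut Vκ gene is joined to a Jκ element by deletion or by inversion of the DNA between them, depending on the orientation of the V gene. Pre-B cells are the main stage of κ light chain recombination, and pro-B cells join Vκ genes at low frequency.

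The family occupied a stretch of 319.3 kb on chromosome 6 (mm9), from IGKV6-29 on the distal side to IGKV6-13 on the Jκ-proximal side, and was interrupted there by 10 other Vκ genes. In the GENCODE annotation of this build the members are located at chr6:70407495-70407781 (IGKV6-13), chr6:70384946-70385470 (IGKV6-14), chr6:70356463-70356986 (IGKV6-15), chr6:70321463-70321987 (IGKV6-17), chr6:70285835-70286500 (IGKV6-20), chr6:70210403-70210927 (IGKV6-23), chr6:70165427-70165951 (IGKV6-25) and chr6:70088456-70089076 (IGKV6-29). The distance from the gene to Jκ1 thus rose from 264.8 kb for IGKV6-13 to 583.5 kb for IGKV6-29. IGKV6-17 and IGKV6-25 are on the forward strand and the other 6 members on the reverse strand. The annotation gives 7 members a leader exon and a V exon separated by an intron, whereas IGKV6-13 is annotated with its V exon only. IGKV6-32 is at chr6:70024018-70024578 on the reverse strand, 63.9 kb beyond IGKV6-29. All 9 genes are classified as functional in the gene list of the study.

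The recombination signals of the family were read from the mm9 genome. The sequences below start with the last 12 bases before the heptamer, the capitals mark the heptamer and the nonamer, and they are shown because IGKV6-23 and IGKV6-14, and likewise IGKV6-17 and IGKV6-32, share a signal, and because IGKV6-15 has a heptamer of its own. They are located at chr6:70210375-70210414 (IGKV6-23, reverse strand), chr6:70384918-70384957 (IGKV6-14, reverse), chr6:70356435-70356474 (IGKV6-15, reverse), chr6:70321976-70322015 (IGKV6-17, forward) and chr6:70023990-70024029 (IGKV6-32, reverse).
IGKV6-23: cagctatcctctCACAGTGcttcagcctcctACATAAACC
IGKV6-14: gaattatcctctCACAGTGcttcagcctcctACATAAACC
IGKV6-15: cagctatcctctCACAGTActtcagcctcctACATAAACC
IGKV6-17: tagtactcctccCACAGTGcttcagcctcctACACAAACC
IGKV6-32: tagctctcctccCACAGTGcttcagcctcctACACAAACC

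The consensus heptamer CACAGTG was present in 8 of the 9 genes and in 83 of the 92 functional Vκ genes (90.2%). IGKV6-15 was the exception, with the substitution G7A counted from the first base of the heptamer, and was the only functional Vκ gene with this heptamer. None of the 9 genes had the consensus nonamer ACAAAAACC, which 34 of the 92 functional genes (37%) carried. The 9 signals matched 14 or 15 of the 16 heptamer and nonamer letters, and 91 of the 92 functional genes (98.9%) matched at least 14. From the heptamer to the nonamer, the signals of IGKV6-23 and IGKV6-14 were identical, and so were those of IGKV6-17 and IGKV6-32. The signal of IGKV6-17 and IGKV6-32 was not particular to the family. IGKV8-16, IGKV8-19, IGKV8-28, IGKV8-30 and IGKV7-33 carried it as well.

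Vκ promoters typically contain an octamer, ATTTGCAT or ATGCAAAT, which is bound by Oct proteins. Within 300 bases before the start codon this octamer was absent in exact form from the 9 Vκ6 genes (0 of 9), while 67 of the 92 functional Vκ genes (72.8%) and 95 of all 162 genes with coordinates (58.6%) had it on either strand. The exact octamer was also absent from each of the other Vκ genes between the members, and from IGKV8-30, IGKV7-33 and IGKV8-34. Its absence was thus not particular to the family. Matches of 7 letters were present in 8 of the Vκ6 genes, namely CTTTGCAT in 7 and TTTTGCAT in IGKV6-14, and 90 of the 92 functional genes (97.8%) matched at least 7 letters. On either strand, 22 of the 162 windows (13.6%) held CTTTGCAT and 7 (4.32%) held TTTTGCAT. IGKV6-32 had CTTTGCGT at the aligned position, with 6 matching letters. The following 40-base stretches show this position in capitals for a typical member, for IGKV6-14 and for IGKV6-32, at chr6:70211004-70211043, chr6:70385547-70385586 and chr6:70024655-70024694, all on the reverse strand. A match of letters is given as a description and shows neither binding nor its absence.
IGKV6-23: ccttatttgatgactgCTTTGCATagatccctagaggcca
IGKV6-14: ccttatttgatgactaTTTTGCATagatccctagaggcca
IGKV6-32: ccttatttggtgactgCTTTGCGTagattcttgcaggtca

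Over the last 280 bases before the heptamer, the most similar pair was IGKV6-20 and IGKV6-29 (98.2% identity), followed by IGKV6-13 and IGKV6-23 (96.1%) and by IGKV6-17 and IGKV6-25 (95.4%). IGKV6-32 was at most 87.5% identical to any member, and its 300 upstream bases were at most 80.4% identical to those of a member. Reads that fit several genes may have been divided or assigned between near-identical genes in a manner not given in the sources used here, which concerns IGKV6-20 and IGKV6-29 most. Active chromatin was examined with the H3K27ac peak list from 1 library of Rag1(Cre/Cre) pro-B cells. None of its 17935 peaks lay between IGKV6-29 and IGKV6-13. The whole stretch from the most distal Vκ gene to Jκ held 2 peaks, so that peaks were sparse across the locus. The nearest peak was 95.7 kb away for IGKV6-29, between 172.7 and 328.7 kb away for the other 7 members and 31.3 kb away for IGKV6-32.

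All values below are percentages of the Vκ-Jκ joints of a library, obtained by dividing the deposited value of a gene by the sum over all 163 genes. The deposited sums were 4.87 to 6.77 in pre-B and 0.0740 to 0.377 in pro-B libraries, without overlap between the cell types. The files give no read counts, but the values of the 9 Vκ6 genes were whole multiples of a fixed step in each of the 20 libraries (tolerance 0.02 of a step), as were 81.0 to 96.7% of all values above 0. The step amounted to 0.00177 to 0.00368% of the joints in pre-B libraries, whereas it was 0.0220 to 0.0840% in 11 pro-B libraries and 0.610% in Wapl(+/+) pro-B replicate 2. This last library thus consisted of 164 steps in all, compared with 1191 to 4549 in the other pro-B and 27178 to 56642 in the pre-B libraries, and its family total of 4 steps came from IGKV6-13 (1 step), IGKV6-17 (1) and IGKV6-23 (2). The control pro-B values are therefore given also without it where they bear on a comparison. The values measure joints and not transcripts, so the sorted cell types could not be compared with marker genes here. The labels do not say whether libraries of a group came from separate mice, and the p-values measure the spread between libraries only.

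In Wapl(+/+) pre-B cells, the 8 members together accounted for 4.23, 4.03, 3.82 and 3.94% of the joints in the 4 libraries (4.01% ± 0.169, SD). The individual genes differed in their use by more than an order of magnitude. IGKV6-17 (0.987% ± 0.0547) and IGKV6-23 (0.965% ± 0.0645) were highest and overlapped in range. IGKV6-15, the gene with the deviating heptamer, followed with 0.839% ± 0.0353. IGKV6-25 (0.515% ± 0.0411) came next, and IGKV6-14 (0.251% ± 0.0384) and IGKV6-20 (0.244% ± 0.0307) formed a lower pair with overlapping ranges. IGKV6-13 (0.129% ± 0.0209) and IGKV6-29 (0.0761% ± 0.0219) were lowest. Apart from the overlapping pairs, neighbouring genes in this order did not overlap among the 4 libraries. IGKV6-32 was used more than any member, with 1.61 to 1.81% of the joints. In the pairs with identical signals, IGKV6-23 was used 3.84-fold more than IGKV6-14 and IGKV6-32 1.77-fold more than IGKV6-17, in all 4 libraries. A relation between signal and use was not tested. Among all 163 Vκ genes, the members ranked between 44 (IGKV6-17) and 105 (IGKV6-29), and IGKV6-32 ranked 14.

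**Figure D1:**
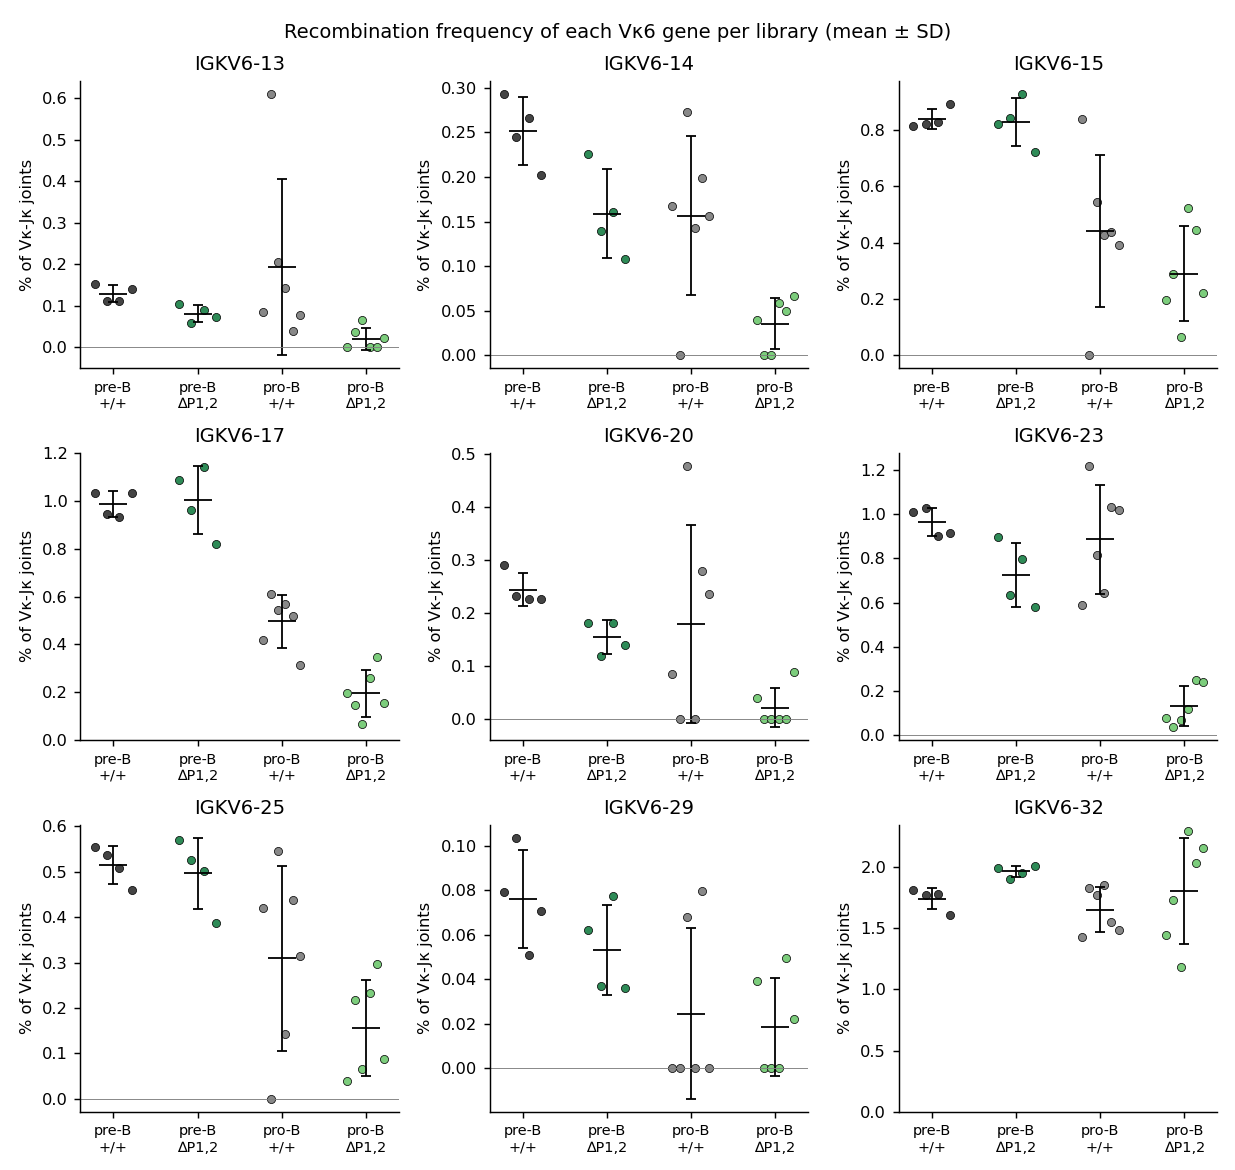
Recombination frequency of the 8 Vκ6 family members and of IGKV6-32 in each of the 20 libraries, in percent of all Vκ-Jκ joints (vertical axis), for pre-B and pro-B cells of the control (+/+) and mutant (∆P1,2) mice. Points are libraries, bars give the mean ± SD, which reaches below 0 where several libraries are at 0; IGKV6-23 in ∆P1,2 pro-B cells lies between 0.0361 and 0.248% and below all the other groups, whereas IGKV6-32 stays between 1.18 and 2.29% in all of them.

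The effect of the genotype in pre-B cells was modest and divided the family. IGKV6-13, IGKV6-14, IGKV6-20 and IGKV6-23 were lower in Wapl(∆P1,2/∆P1,2) than in Wapl(+/+) pre-B cells, with group means of 62.9, 63.1, 63.4 and 75.3% of the control means, whereas IGKV6-15, IGKV6-17 and IGKV6-25, which are among the 4 most used members, had means of 98.7, 101.8 and 96.5%. The 4 lower genes were called by limma at a Benjamini-Hochberg adjusted p below 0.05, and no member was higher. This share, 4 of 8, compares with 45.8% of all 107 tested Vκ genes that were called lower, and is thus close to the background. The median log2 fold change was -0.35 over the 8 members and -0.18 over all tested genes.

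IGKV6-20 fell from 0.290, 0.232, 0.227 and 0.226% to 0.181, 0.118, 0.180 and 0.138% of the joints, and the groups did not overlap. Its log2 fold change, on the scale of log2 of the percentage plus 0.05, was -0.53 ± 0.12 (SE; adjusted p = 0.0012). IGKV6-14 had 0.293, 0.245, 0.266 and 0.202% in the control and 0.226, 0.140, 0.161 and 0.108% in the mutant libraries, with the highest mutant value above the lowest control value (log2 fold change -0.55 ± 0.15, adjusted p = 0.00375). IGKV6-13 decreased from between 0.111 and 0.152% to between 0.0589 and 0.103% (log2 fold change -0.45 ± 0.13, adjusted p = 0.00501).

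IGKV6-23 showed 1.01, 1.03, 0.903 and 0.918% in the control libraries and 0.896, 0.633, 0.797 and 0.582% in the mutant libraries. All mutant values were below all control values, although the closest pair differed little (log2 fold change -0.40 ± 0.11, adjusted p = 0.00501). Non-overlapping lower ranges were thus seen for 3 of the 8 members, IGKV6-13, IGKV6-20 and IGKV6-23, against 38.3% of all tested genes. IGKV6-29 was at 0.0761% ± 0.0219 and 0.0531% ± 0.0203 in the control and mutant libraries and did not pass the threshold (adjusted p = 0.0934).

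The log2 fold changes of the remaining members were small and had narrow intervals in pre-B cells. They were -0.02 for IGKV6-15 (95% confidence interval -0.20 to 0.16), 0.02 for IGKV6-17 (-0.19 to 0.22) and -0.06 for IGKV6-25 (-0.29 to 0.17). Neither of the forward-oriented members, IGKV6-17 and IGKV6-25, was called, whereas 4 of the 6 reverse-oriented members were. No test of this split was made, and the shares of all forward and reverse Vκ genes called are not given. Of the other tested forward-oriented genes between the members, IGKV8-23-1 was called lower (log2 fold change -0.42, adjusted p = 0.0011). IGKV8-18 was not called (0.05, adjusted p = 0.663). The log2 fold changes of IGKV6-17 and IGKV6-15 were so close to 0 that their sign changed with single libraries left out. IGKV6-32 increased from 1.81, 1.77, 1.78 and 1.61% to 2.00, 1.90, 1.96 and 2.01% without overlap (log2 fold change 0.17 ± 0.07, adjusted p = 0.0369). The family total was 3.95, 3.32, 3.88 and 2.87% in the mutant libraries (3.50% ± 0.510), with values on either side of the lowest control library.

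In pro-B cells the difference between the genotypes was larger. The 8 members summed to 2.60, 2.44, 3.47, 2.07, 3.02 and 2.51% of the joints in the 6 Wapl(+/+) libraries (2.69% ± 0.493) and to 0.624, 0.722, 0.328, 1.19, 1.44 and 0.901% in the 6 Wapl(∆P1,2/∆P1,2) libraries (0.867% ± 0.401). The groups did not overlap, and the mutant mean was 32.3% of the control mean. Without control replicate 2 the control mean was 2.73% ± 0.535 (5 libraries). In steps, the members had 223 of 8015 in the control libraries combined (2.78%) and 152 of 16866 in the mutant libraries combined (0.901%). Because the members were chosen with results known, their sum is given without a test.

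All 7 tested members had negative log2 fold changes, and 3 of the 7 were called lower, namely IGKV6-23, IGKV6-17 and IGKV6-13, compared with 13.5% of all 104 tested Vκ genes. IGKV6-29 was not tested, since its mean over these libraries was below 0.05%. IGKV6-13, IGKV6-14 and IGKV6-20 had mutant means of 0.0206, 0.0354 and 0.0212%. These 3 genes reached the limit of 0.05% only through the control group, so the share of members called lower depends partly on the filter. No member was called higher. The median log2 fold change was -1.23 over the 7 members and -0.26 over all tested genes. Centring each library on its median gene, a scaling that does not rest on the total, left 1 member called, IGKV6-23, and changed the split of all calls from 14 lower and 13 higher to 5 lower and 17 higher.

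IGKV6-23 was the member used most in Wapl(+/+) pro-B cells and had the most negative log2 fold change on the log2(percent + 0.05) scale, although the ratio of group means was larger for IGKV6-13 and IGKV6-20 (10.7 and 11.8% of the control mean), which had few steps. Without control replicate 2, the control mean exceeded the mutant mean 5.33-fold for IGKV6-13, 10.2-fold for IGKV6-20 and 6.26-fold for IGKV6-23. It accounted for 0.588, 1.22, 0.817, 0.642, 1.03 and 1.02% of the joints in the control libraries and for 0.0781, 0.0361, 0.0656, 0.116, 0.248 and 0.242% in the mutant libraries. The highest mutant value was less than the lowest control value, and the mutant mean amounted to 14.8% of the control mean. The log2 fold change was -2.48 ± 0.39 (adjusted p = 0.001), the most negative of all 104 tested genes, and the call held with each of the 12 libraries left out (log2 fold changes -2.66 to -2.30). With all 12 libraries it was the only member whose groups did not overlap, while 6.73% of all tested genes were lower without overlap. Without control replicate 2, the groups of IGKV6-14 did not overlap either, which makes 2 of 7 tested members against 14.4% of all tested genes.

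IGKV6-17 decreased from 0.420, 0.610, 0.545, 0.571, 0.517 and 0.314% to 0.195, 0.145, 0.0656, 0.261, 0.347 and 0.154%, so that the highest mutant library exceeded the lowest control library (log2 fold change -1.23 ± 0.37, adjusted p = 0.0234). This call was retained in 10 of 12 fits with 1 library left out. IGKV6-13 was detected in all 6 control libraries, at 0.0840, 0.610, 0.204, 0.143, 0.0398 and 0.0784%, and was listed at 0 in 3 mutant libraries, with 0.0361, 0.0656 and 0.0220% in the other 3. Its log2 fold change was -1.52 ± 0.49 (adjusted p = 0.0316). The highest control value is the single step of the library with 164 steps, and the call was lost in 6 of 12 fits with 1 library left out, the adjusted p ranging from 0.0288 to 0.0674.

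The calls for the other 4 tested members depended mainly on Wapl(+/+) pro-B replicate 2, in which IGKV6-14, IGKV6-15, IGKV6-20 and IGKV6-25 were all at 0. IGKV6-14 was at 0.168, 0, 0.272, 0.143, 0.199 and 0.157% in the control and at 0.0390, 0, 0, 0.0580, 0.0496 and 0.0660% in the mutant libraries (log2 fold change -1.16 ± 0.48, adjusted p = 0.0796). IGKV6-20 was at 0 in 2 control and 4 mutant libraries, and was otherwise between 0.0840 and 0.477% in the control and at 0.0390 and 0.0879% in the mutant libraries (log2 fold change -1.29 ± 0.60, adjusted p = 0.122; called without control replicate 4). IGKV6-25 ranged from 0 to 0.545% (median 0.367%) in the control and from 0.0390 to 0.298% (median 0.152%) in the mutant group, and IGKV6-15 from 0 to 0.840% (median 0.433%) and from 0.0656 to 0.522% (median 0.254%). Their log2 fold changes were -0.61 ± 0.60 and -0.31 ± 0.62 (adjusted p = 0.482 and 0.724).

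Without replicate 2, all 7 tested members were called lower, against 30.8% of all tested genes. Of these members, IGKV6-13, IGKV6-14 and IGKV6-20 passed the filter only through the control group. The log2 fold changes then ranged from -0.89 for IGKV6-15 (adjusted p = 0.0451) to -2.39 for IGKV6-23 (adjusted p = 9.26e-06), and those of IGKV6-14, IGKV6-20 and IGKV6-25 were -1.53, -1.63 and -1.11 (adjusted p = 0.00336, 0.00997 and 0.0318). The call count fell to 1 member, IGKV6-23, without Wapl(∆P1,2/∆P1,2) replicate 2 or replicate 6. Single steps account for many of the remaining pro-B values: IGKV6-13, IGKV6-14 and IGKV6-20 had 9, 15 and 18 steps in the control and 3, 7 and 5 in the mutant libraries combined. IGKV6-29 had 3 steps in either group and was at 0 in 4 control and 3 mutant libraries, so that a difference in this gene was not detectable at this depth.

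IGKV6-32 did not follow the members in pro-B cells. It was at 1.43, 1.83, 1.77, 1.85, 1.55 and 1.49% in the control and at 1.44, 1.73, 1.18, 2.29, 2.03 and 2.15% in the mutant libraries, with overlapping groups and a log2 fold change of 0.10 (95% confidence interval -0.31 to 0.50, adjusted p = 0.724). With the same recombination signal, IGKV6-32 exceeded IGKV6-17 by 3.33-fold in control and by 9.28-fold in mutant pro-B cells, and by 3.42-fold in control cells without replicate 2. The intervals of IGKV6-32 and IGKV6-23 did not overlap, but the difference between these genes was not tested.

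**Figure D2:**
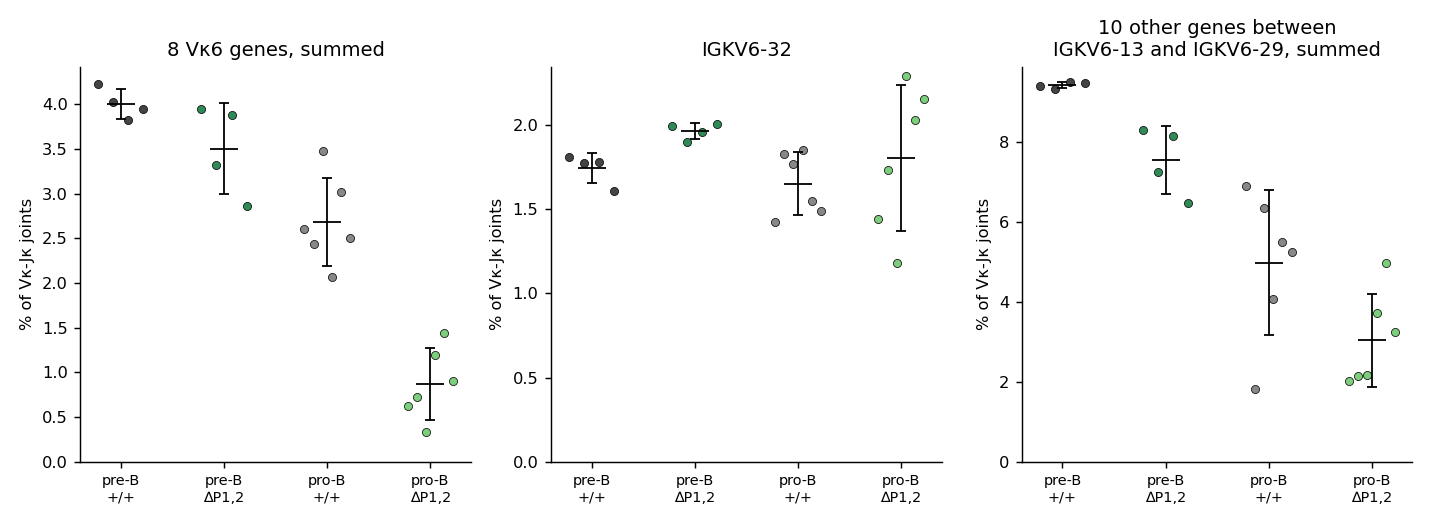
Sum of the 8 Vκ6 family members (left), IGKV6-32 (middle) and sum of the 10 other Vκ genes between IGKV6-13 and IGKV6-29 (right) in each library, in percent of all Vκ-Jκ joints (vertical axes, each with its own scale from 0). Points are libraries and bars the mean ± SD; the 6 ∆P1,2 pro-B libraries (0.328 to 1.44%) lie below the 6 +/+ pro-B libraries (2.07 to 3.47%) for the family sum, and overlap with them for IGKV6-32 and for the sum of the 10 other genes.

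The composition of the family is given as a description, without a test. The share of IGKV6-23 in the summed group means was 24.1 and 20.7% in control and mutant pre-B cells, and 33 and 15.1% in control and mutant pro-B cells. IGKV6-15 made up 20.9 and 23.6% in pre-B cells, and 16.4 and 33.4% in pro-B cells. Without Wapl(+/+) pro-B replicate 2, the control pro-B shares were 30% for IGKV6-23 and 19.3% for IGKV6-15. In single pro-B libraries, which held 4 to 76 steps of the family, the ranges overlapped, with 22.6 to 50% in control and 5 to 26.8% in mutant libraries for IGKV6-23, and 0 to 32.3% and 20 to 43.9% for IGKV6-15. By mean level, IGKV6-23 was the highest member in control pro-B cells and exceeded IGKV6-17 in all 6 libraries, whereas IGKV6-15 was the highest in mutant pro-B cells, followed by IGKV6-17, IGKV6-25 and IGKV6-23 with overlapping ranges.

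The experiment numbers in the labels form separate runs, namely an earlier run of pre-B libraries, an earlier run of pro-B libraries and a later run with both stages. Each was balanced between the genotypes and is treated as a possible batch. In the earlier pro-B run, the family total in pro-B cells was 2.84% in control and 0.558% in mutant libraries (3 each), and in the later run it was 2.53 and 1.18% (3 each). IGKV6-23 was at 0.875 and 0.0599% in the earlier and at 0.898 and 0.202% in the later run. Without replicate 2, the earlier control means were 3.04% for the family and 0.703% for IGKV6-23. In pre-B cells (2 libraries each), the family total was 4.13 and 3.63% in the earlier and 3.88 and 3.37% in the later run. The mutant means were thus lower within each run, although in the later pre-B run 1 mutant library (3.88%) lay above 1 control library (3.82%) for the family total.

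**Figure D3:**
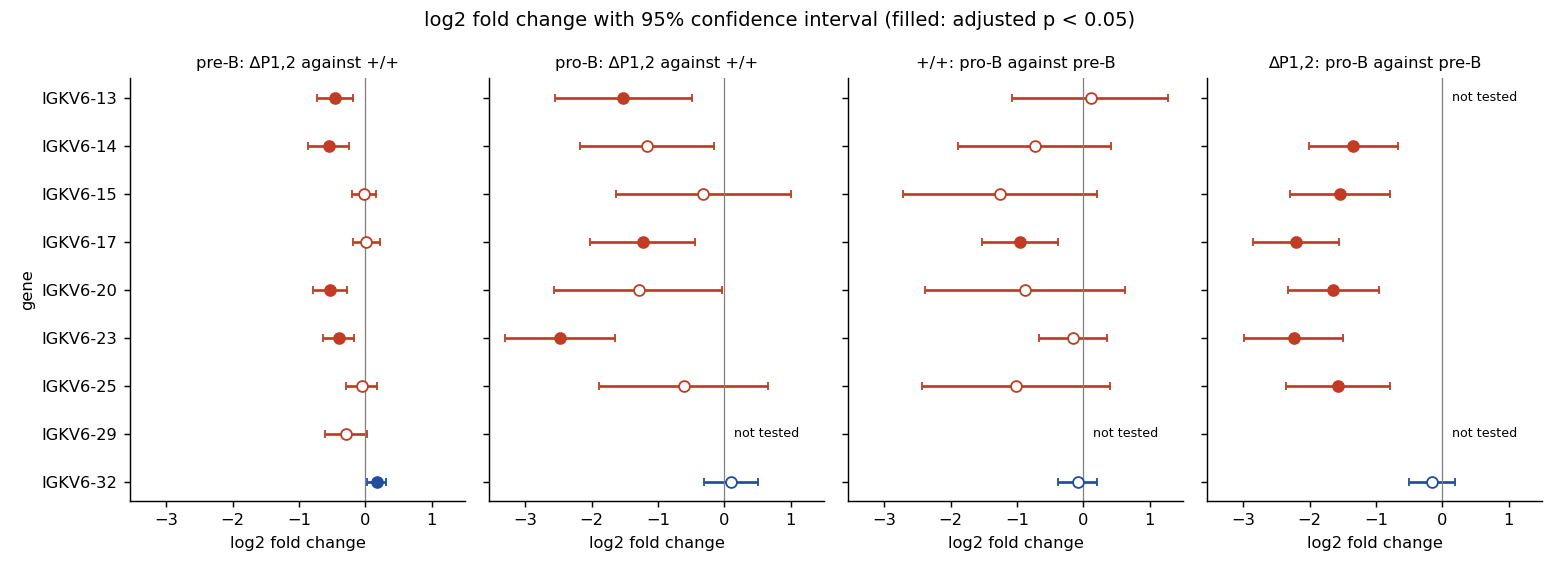
Log2 fold change of log2(percent + 0.05) with its 95% confidence interval (horizontal axis) for each Vκ6 gene (vertical axis) in the 4 comparisons of groups, from limma. Filled points have an adjusted p below 0.05; the members (red) lie left of 0 in most comparisons, with IGKV6-23 at -2.48 between the pro-B genotypes, and IGKV6-32 (blue) lies between -0.15 and 0.17 throughout.

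To ask whether the genotype effect differed between the stages, the log2 fold change of the pre-B stage was subtracted from that of the pro-B stage and tested in a fit of all 4 groups. It was -2.08 ± 0.47 for IGKV6-23 (adjusted p = 0.011), and this call held with each of the 20 libraries left out. IGKV6-23 was the only one of 7 tested members called, compared with 1.89% (2 of 106) of all tested genes. For IGKV6-17 the difference was -1.25 ± 0.41, with an unadjusted p of 0.00653 and an adjusted p of 0.186. Of the 20 fits with a library left out, it passed the threshold in the fit without Wapl(+/+) pro-B replicate 2 (adjusted p = 0.0447), and it also passed with array weights. The differences of the other 5 members were between -0.29 (IGKV6-15) and -1.07 (IGKV6-13), and their intervals included 0. For IGKV6-32 the difference was -0.07 (95% confidence interval -0.55 to 0.40).

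Between the stages, the family total was lower in pro-B than in pre-B libraries of either genotype. In Wapl(+/+) mice the pro-B mean was 67% of the pre-B mean, and the groups did not overlap, also without pro-B replicate 2. IGKV6-17 was the only member called lower, 1 of 7 tested members against 8.57% of all 105 tested genes, with 0.496% ± 0.110 in pro-B and 0.987% ± 0.0547 in pre-B cells (log2 fold change -0.95 ± 0.26, adjusted p = 0.0297). The call was lost when any of the 4 pre-B libraries was left out (adjusted p up to 0.107). IGKV6-23 was at 0.887% ± 0.247 in pro-B and 0.965% ± 0.0645 in pre-B cells (log2 fold change -0.16, 95% confidence interval -0.67 to 0.36). IGKV6-15 was at 0.440% ± 0.271 and 0.839% ± 0.0353 (log2 fold change -1.25 ± 0.67, adjusted p = 0.193), and it was called without pro-B replicate 2 (adjusted p = 0.0311). IGKV6-13 was the only tested member with a positive log2 fold change, at 0.193% ± 0.212 in pro-B and 0.129% ± 0.0209 in pre-B cells (0.11, 95% confidence interval -1.07 to 1.28), and its value was -0.25 without pro-B replicate 2. The median log2 fold change was -0.87 over the 7 members and -0.65 over all tested genes. After centring on the median gene, limma called 0 members (1 member had an unadjusted p below 0.05), and the calls over all genes changed from 9 lower and 11 higher to 0 lower and 15 higher.

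In Wapl(∆P1,2/∆P1,2) cells the family total in pro-B cells was 24.8% of that in pre-B cells. All 6 tested members were called lower in pro-B cells, against 42% of all 100 tested genes, and for all 6 the groups did not overlap, as for 33% of all tested genes that were lower without overlap. IGKV6-17 decreased from 1.00% ± 0.144 to 0.195% ± 0.0985 (log2 fold change -2.20 ± 0.31, adjusted p = 3.41e-05) and IGKV6-23 from 0.727% ± 0.145 to 0.131% ± 0.0919 (-2.24 ± 0.36, adjusted p = 8.09e-05). The values for IGKV6-20, IGKV6-25, IGKV6-15 and IGKV6-14 were -1.64, -1.57, -1.54 and -1.34 (adjusted p = 0.000555 to 0.00233). IGKV6-13 and IGKV6-29 were not tested because of their low mean. IGKV6-14 and IGKV6-20 averaged 0.0354 and 0.0212% in pro-B cells. They passed the filter of 0.05% only through the pre-B group (0.159 and 0.155%), so the count of 6 depends partly on the filter. The median log2 fold change was -1.60 over the 6 members and -0.51 over all tested genes. The 6 calls held with each library left out and after centring on the median gene, although centring changed the split over all genes from 42 lower and 12 higher to 19 lower and 33 higher. IGKV6-32 was at 1.81% ± 0.433 and 1.97% ± 0.0478, a log2 fold change of -0.15 (95% confidence interval -0.51 to 0.20). Each group of libraries enters more than 1 of these comparisons. Only the later run of experiment numbers contained both stages. Within it the family total was 2.53 and 3.88% in pro-B and pre-B cells of control mice, and 1.18 and 3.37% in those of mutant mice, and limma called 0 of 7 and 2 of 6 tested members lower, against 1.9% of 105 and 14% of 100 tested genes. In the control mice, 2 members had an unadjusted p below 0.05 within this run.

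The 10 other Vκ genes interspersed between IGKV6-13 and IGKV6-29 belong to the Vκ8 family by name. Together they accounted for 9.42% ± 0.0789 and 7.54% ± 0.854 of the joints in control and mutant pre-B cells, and for 4.98% ± 1.82 (5.61% ± 1.08 without replicate 2) and 3.04% ± 1.17 in control and mutant pro-B cells. Of these genes, 6 of 8 tested were called lower in mutant pre-B cells (45.8% of all tested genes) and 2 of 7 tested in mutant pro-B cells (13.5%), and none was called higher. In pre-B cells the most negative of these was IGKV8-19, with a log2 fold change of -0.65 ± 0.12 (adjusted p = 0.000119). In pro-B cells it was IGKV8-23-1, at 0.981% ± 0.245 in control and 0.429% ± 0.275 in mutant cells (log2 fold change -1.26 ± 0.37, adjusted p = 0.0234). The median log2 fold change in pro-B cells was -0.66 for the interspersed genes and -1.23 for the members, and without Wapl(+/+) replicate 2 it was -1.21 and -1.17, with 4 of 7 and 7 of 7 called lower (30.8% of all tested genes). Between the stages, 3 of 8 tested interspersed genes were called lower in control pro-B than pre-B cells (8.57% of all tested genes), with IGKV8-18 as the most negative of these 3 (log2 fold change -1.63 ± 0.45, adjusted p = 0.0297), and all 8 were called lower in mutant pro-B cells (42%), with IGKV8-24 as the most negative (-2.17 ± 0.46, adjusted p = 0.00106). IGKV8-18 averaged 0.0433% in control pro-B cells and passed the filter of 0.05% only through the control pre-B group (0.2%). In the test of the difference between the stages, none of the 8 tested interspersed genes was called by limma, nor did any have an unadjusted p below 0.05.

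**Figure D4:**
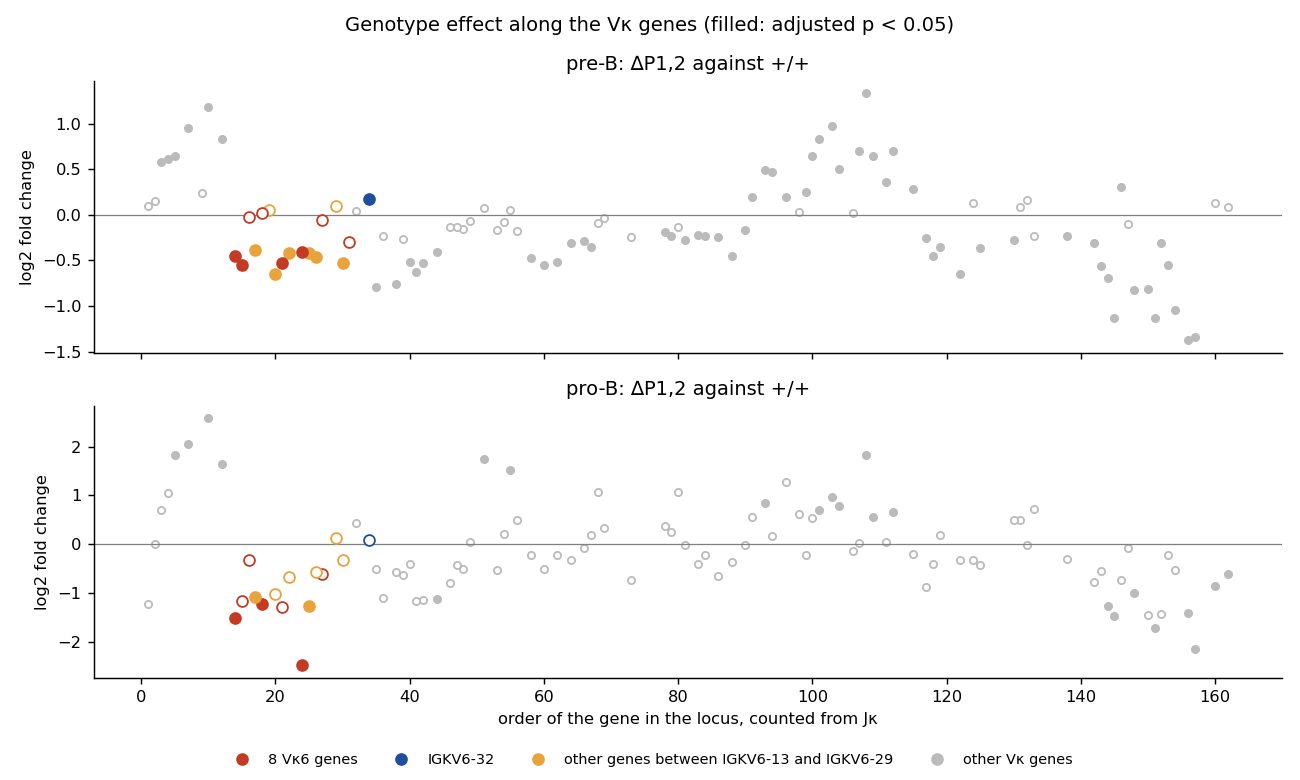
Log2 fold change of Wapl(∆P1,2/∆P1,2) relative to control libraries (vertical axes, separate scales) for all tested Vκ genes in their order along the locus counted from Jκ (horizontal axis), in pre-B cells (top) and pro-B cells (bottom). Red points are the Vκ6 family, orange points the other genes between IGKV6-13 and IGKV6-29, the blue point IGKV6-32, and filled points have an adjusted p below 0.05; the red and orange points lie mostly below 0 in pre-B and in pro-B cells, and IGKV6-23 at -2.48 is the lowest point of the pro-B panel.

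Across the 20 libraries, the 3 genes outside the family whose log2 percentage most resembled that of the family total were IGKV8-23-1 (Pearson's r = 0.967), IGKV12-41 (0.961) and IGKV8-16 (0.944), with 0.981, 0.967 and 0.966 without Wapl(+/+) pro-B replicate 2. These correlations describe libraries that fall into 4 groups and share a total. IGKV8-23-1 and IGKV8-16 lie between the members, whereas IGKV12-41 does not. IGKV12-41 was at 1.31% ± 0.0961 and 0.980% ± 0.125 in control and mutant pre-B cells and at 0.802% ± 0.192 and 0.351% ± 0.121 in control and mutant pro-B cells. Among the Vκ6 genes themselves, the correlation of a gene with the sum of the other members was highest for IGKV6-17 (0.91) and IGKV6-23 (0.833), lowest among members for IGKV6-13 (0.449), and 0.312 for IGKV6-32 with the family total.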

How the data were processed

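VDJ-seq of the Igk locus was analysed in 20 libraries, which were grouped by their labels into pro-B and pre-B cells of both Wapl genotypes. The authors ligated adapters with UMI sequences to sheared DNA, extended biotinylated Jκ primers and sequenced the captured joints on a MiSeq instrument. They deposited 1 normalized score per Vκ gene and library, whose total and aligner are not given in the sources used here, and a list of H3K27ac peaks on mm9. Each score was divided by the sum of its library. For each comparison, the genes averaging 0.05% or more were tested on log2(percent + 0.05) with limma 3.58.1 (R 4.3.3; moderated by empirical Bayes with a trend), two-sided and with Benjamini-Hochberg adjustment over all tested Vκ genes. The script was tested on simulated data. A step was the largest of several simple multiples or fractions of the smallest value above 0 of which at least 80% of the values of a library were whole multiples. The depth is otherwise unknown, and no counting intervals are given. No 2 of the Igk libraries held identical values. Recombination signals were taken as the best match to CACAGTG, a spacer of 12 bases and ACAAAAACC within 60 bases of the 3′ end given in the gene list of the study, in the NCBIM37 (mm9) genome, and sequences were aligned with Biopython 1.88. Named were all 8 members and IGKV6-32, for each comparison the called interspersed genes with the largest positive and negative change, and the 3 genes most like the family total. The members and lists were chosen with earlier results of these data known. Alternatives were another pseudocount (0.01 or 0.2%), no filter, percentages without logarithm, Holm's adjustment, the experiment numbers (the later run against the earlier ones, which joins separate pre-B and pro-B runs in comparisons of the stages), array weights, centring, another total and each library left out. Igh, Hi-C and single Jκ elements were not analysed here.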

Additional observations from a re-analysis of the deposited data

Results flagged for a closer look

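Among 40 sets of values (the 9 Vκ6 genes and the family total in 4 groups), 2 contained a library that stood apart from the rest of its group. Whether this is more than chance gives was not tested. IGKV6-13 was at 0.61% in Wapl(+/+) pro-B replicate 2 and at 0.0398 to 0.204% in the other 5 libraries; this value is a single step of that library. IGKV6-20 was at 0.29% in Wapl(+/+) pre-B replicate 1 and at 0.226 to 0.232% in the other 3 libraries. The genotype effect on IGKV6-23 differed between pro-B and pre-B cells by -2.08 on the log2 scale (limma, adjusted p = 0.011); it was lower in the mutant in both cell types.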

How the results depend on the processing

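Of 733 member log2 fold changes tested under the alternatives, 677 kept their direction and side of the threshold, 18 passed it newly, 23 no longer passed it and 15 changed sign. Of 30 values from the earlier or later libraries alone, which had no test, 27 kept their sign and 3 did not, all in pre-B cells: IGKV6-15 (0.021) and IGKV6-25 (0.0068) in the earlier and IGKV6-17 (-0.018) in the later run. The 15 tested reversals concerned members that were not called: in pre-B cells IGKV6-15 (0.028 with array weights, 0.011 with a total that leaves out the 2 Vκ genes with the highest mean in each group, -0.07 to 0.038 with a library left out), IGKV6-17 (-0.047 to 0.1) and IGKV6-25 (-0.12 to 0.048); in pro-B cells IGKV6-15 (0.019 after centring); between the wild-type stages IGKV6-13 (-0.32 with array weights, -0.25 to 0.33 with a library left out) and IGKV6-23 (0.19 after centring, 0.014 with the other total); and in the difference between the stages IGKV6-15 (0.11 after centring). The cause was not tested.

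Holm's adjustment called 44 genes and 1 member in pre-B cells, 7 and 1 in pro-B cells, 3 and 0 between the wild-type stages, and 27 genes between the mutant stages. Array weights called 49 genes and 7 members in pro-B cells, 63 and 2 between the wild-type stages, and 19 and 4 for the difference between the stages. Centring called 1 member in pro-B cells, 0 between the wild-type stages, and 1 gene for the difference. Percentages without logarithm called 39 genes and 2 members between the wild-type stages and 6 genes for the difference. This other total called 13 genes and 0 members between the wild-type stages and 1 gene for the difference. The later run of experiment numbers alone called 7 genes and 0 members between the wild-type stages and 18 and 2 between the mutant stages. With a library left out, 16 to 49 genes and 1 to 7 members were called in pro-B cells, 3 to 44 and 0 to 2 between the wild-type stages, and 2 to 10 and 1 to 2 for the difference; the highest counts were those without Wapl(+/+) pro-B replicate 2. The main counts were 72, 27, 20, 54 and 2 genes.

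With IGKV6-32 the family totals were 5.75, 5.47, 4.34 and 2.67%, and with the other total they were 4.32% in wild-type pre-B and 3.27% in wild-type pro-B cells. Pooling libraries by steps, chosen after the data were seen, gave 4.02, 3.58, 2.78 and 0.901%. No paired analysis was possible because the labels give no replicate numbers. Depth limits the pro-B values: 1 step was 0.0220 to 0.610% of a pro-B library, above the level of several members.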
